A study of Mus musculus with 90 samples.

Results

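RAW 264.7 cells, a mouse macrophage-like line, were treated for 1 h with lipopolysaccharide (LPS) or with 2-methyl-thio-ATP (2MA), and the early transcript changes of both treatments were compared directly. The LPS group received LPS at 100 ng/ml and is listed with lipid binding protein at 100 pM. The 2MA group received 2MA at 500 µM. Each group had 3 numbered sets, and each set was a dye-swapped pair of custom Agilent 2-colour arrays on which RNA of treated cells was hybridised with RNA of untreated cells of the same time. Groups of LPS and of 2MA at 2 and 4 h, with the same agents and doses, and of LPS with 2MA at 1 h were used for the members' values in other conditions. The comparison itself used 12 of the 90 arrays of the series, chosen by treatment and time alone. All groups were of 1 cell line without a transgene or deletion in the labels, and no primary macrophages were examined. Nothing in the labels states that the numbered sets came from separate cultures, or that LPS and 2MA arrays had untreated RNA of their own. The p-values may therefore reflect a technical spread between these samples alone. In bulk RNA, fewer cells with a transcript and less of it per cell cannot be told apart.

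LPS, a glycolipid of Gram-negative bacteria, is sensed by Toll-like receptor 4 with its partners Cd14 and Ly96. The receptor's adaptors activate NF-kB, the MAP kinases and interferon regulatory factors, and these switch on inflammatory genes within an hour. 2-methyl-thio-ATP is an analogue of ATP that acts on P2 receptors, the cell-surface receptors of extracellular nucleotides. P2Y receptors couple to G proteins, calcium release and MAP kinases, whereas P2X receptors are ion channels. Immediate early genes are those induced without new protein synthesis, and both kinds of signal can reach them.

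The deposited values were log2 ratios of the channels. Their direction is not stated in the labels and was taken as Cy5 over Cy3, which is likely because 5 of 5 genes known to be raised early by LPS (Tnf, Il1b, Tnfaip3, Ier3 and Dusp1) then had mean LPS ratios above 0. A set value is the mean log2 ratio of treated over untreated RNA of its dye-swapped arrays, so a value of 1 is a 2-fold rise. Before the sign was turned, the arrays of a pair had r = -0.15, 0.10 and -0.44 in LPS sets 1, 2 and 3. In the 2MA sets r was -0.04, 0.26 and -0.05. Ratios set by treatment alone would give a strong negative r, so part of the ratios was noise or stayed with the dyes. These r values do not separate the 2. After each probe's mean over all arrays was removed, r was -0.64, -0.30 and -0.57 in the LPS sets. In the 2MA sets it was then -0.64, -0.16 and -0.34. Between 8.34 and 14.5% of the values of the 12 arrays were exactly 0 and were treated as missing. The 2MA sets differed in strength: the median ratio of the genes called with both treatments was 2.87, 2.07 and 1.31 in sets 1, 2 and 3, against 2.97, 2.74 and 3.23 in the LPS sets. Features at least 2-fold from control numbered 186, 34 and 45 in the 2MA sets and 146, 136 and 132 in the LPS sets. Ratios give no levels, so the cell type could be checked only by whether marker ratios moved: 0 of 11 macrophage markers, 0 of 9 T cell, 0 of 7 B cell, 0 of 9 fibroblast and 0 of 8 epithelial markers were called in the LPS against 2MA difference, and their differences lay between -0.25 and 0.39.

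Most of the difference between the treatments at 1 h ran in 1 direction. Of 11600 features (9760 genes and 1840 probes without a gene name), 85 differed between LPS and 2MA, which is 0.733%. LPS was higher for 71 (0.612%) and 2MA was higher for 14 (0.121%). A feature counted as called when its difference was at least 2-fold with an adjusted p under 0.05 (limma's moderated test, two-sided, Benjamini-Hochberg over the 11600 features). Against untreated RNA, 119 features were called higher with LPS (1.03%) and 6 lower (0.0517%), whereas 30 were called higher with 2MA (0.259%) and 8 lower (0.069%). Without 2MA set 1 the 2MA calls fell to 17 higher and 0 lower, without set 2 they were 35 higher and 52 lower, and without set 3 they were 38 higher and 1 lower. When every array was first scaled to 1 common spread they were 50 higher and 20 lower.

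From these 3 calls the features raised by LPS fell into classes. LPS-only features, 55 in number, were called higher with LPS, not called with 2MA, and called in the direct difference. Shared features, 23 in number, were called higher with both. Another 40 were called higher with LPS but not in the direct difference, and Id3 was called in opposite directions. The 14 features called lower with LPS than with 2MA are the purine-biased class, and 1 of them, Ccl7, is also shared. The classes were chosen by the values described here, so their 1 h values are a description. The values at other times and under both agents together come from other sets. Those sets still entered the pooled spread and the filter on missing values. The arrays with both agents may also share 1 h untreated RNA with those of the single agents.

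**Figure D1:**
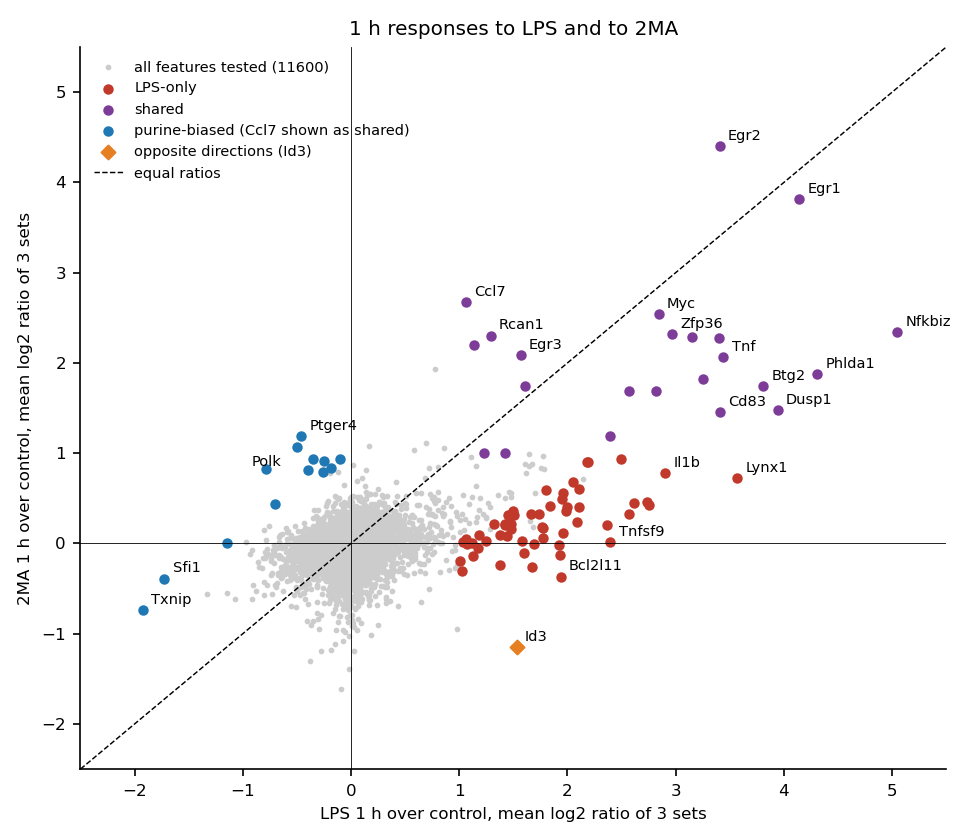
Mean log2 ratio over untreated RNA at 1 h of LPS (x axis) and of 2MA (y axis) for all 11600 features in grey, with the classes in colour and Id3 as a diamond; each mean is over 3 sets, or 2 where a set was missing, and the dashed line marks equal ratios. LPS-only points reach 3.57 with LPS (Lynx1) and lie between -0.37 and 0.94 with 2MA. Shared points spread on both sides of the dashed line up to Egr2 at 4.40 with 2MA, and most purine-biased points lie to the left of 0 with LPS.

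Traf1, Tnfaip3, Tnfaip2 and Nfkbie of the NF-kB feedback genes and the subunit Nfkb2 were among the 55 LPS-only features. NF-kB is held in the cytoplasm by inhibitors, and its own targets include the proteins that end its activity. Traf1, an adaptor of TNF receptors, had LPS values of 2.78, 2.33 and 2.75 in sets 1 to 3 and 2MA values of 0.64, 0.54 and 0.15. The groups were well apart, with a difference of 2.17 (SE 0.23, adjusted p = 1.34e-07, 4.52-fold). Tnfaip3, the ubiquitin-editing brake A20, had LPS values of 1.96, 1.57 and 2.45 against 2MA values of 0.40, 0.85 and -0.03, a difference of 1.59 (SE 0.25, adjusted p = 0.00011). Tnfaip2, an NF-kB target of less certain function, had means of 1.67 ± 0.26 and -0.26 ± 0.39 (SD, n = 3 sets each), a difference of 1.93 (adjusted p = 2.31e-05). Nfkb2, the precursor of the p52 subunit, rose to 1.11 ± 0.08 with LPS against 0.00 ± 0.34 with 2MA. Its difference of 1.11 (adjusted p = 0.00208) was 0.95 and under 2-fold without 2MA set 1. Nfkbie, an inhibitor that retains NF-kB in the cytoplasm, differed by 1.22 (adjusted p = 0.0264), and this call was lost without 2MA set 1 (1.05, adjusted p = 0.201), 2MA set 3 (1.15, adjusted p = 0.149) or LPS set 1, 2 or 3 (1.21, 1.15 and 1.28, adjusted p = 0.108, 0.131 and 0.059). Tnip1, a partner of A20, was 0.98 ± 0.37 with LPS, short of 2-fold, and -0.24 ± 0.09 with 2MA, and its difference of 1.21 was called (adjusted p = 0.00324; 1.01 and adjusted p = 0.0695 without LPS set 1).

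Cytokines and co-stimulatory molecules were also among the LPS-only genes. Il1b, which encodes the fever-inducing cytokine interleukin-1 beta, had LPS values of 3.04, 3.22 and 2.45 and 2MA values of 0.99, 0.95 and 0.40. All LPS sets lay above all 2MA sets, and its 3 probes gave differences of 2.15, 1.90 and 2.32. The 2MA mean of 0.78 missed the call (adjusted p = 0.0838). Tnfsf9, a TNF-family co-stimulatory ligand, had LPS values of 2.32, 2.62 and 2.24 against -0.22, 0.73 and -0.47 with 2MA, a 5.21-fold difference (adjusted p = 9.91e-07). Csf3, the granulocyte growth factor G-CSF, had LPS values of 2.16, 1.67 and 1.94 and 2MA values of -0.09, -0.12 and 0.16. For Ifnb1, interferon beta, they were 2.00, 2.07 and 2.21 against 0.40, 0.19 and 0.14. Neither gene was called with 2MA. The differences were 1.94 for Csf3 (SE 0.37, adjusted p = 0.00115) and 1.85 for Ifnb1 (SE 0.41, adjusted p = 0.00818; 1.80 and adjusted p = 0.0506 without 2MA set 3). Il10, an anti-inflammatory cytokine, differed by 1.43 (adjusted p = 0.00106) and Cd40, the receptor by which T cells license macrophages, by 1.71 (adjusted p = 0.00191). Tnfrsf1b, a TNF receptor, differed by 1.01, just inside the 2-fold limit, and was at 0.99, 0.97 and 0.94 without LPS set 2, LPS set 3 or 2MA set 2.

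The death and survival regulators raised by LPS included both promoters and inhibitors of cell death. Bcl2l11, the BH3-only killer Bim, had LPS values of 2.38, 1.88 and 1.54 and 2MA values of -0.49, -0.29 and -0.33. Every 2MA set was below 0 although the fall with 2MA was not called, and the difference was 2.31 (SE 0.28, adjusted p = 9.77e-07). Cflar, the caspase-8 inhibitor c-FLIP, differed by 1.46 (adjusted p = 7.52e-06). Gadd45a and Gadd45b, stress-induced regulators of MAP kinase signalling and growth, differed by 1.72 and 1.62 (adjusted p = 0.000142 and 0.000111). Mdm2, the ubiquitin ligase that restrains p53, had LPS values of 2.02, 1.97 and 1.82 and 2MA values of -0.33, 0.43 and -0.49, a difference of 2.06. Ppp1r15a, which restores translation after stress, differed by 1.36 (adjusted p = 0.00177), with 0.96 and adjusted p = 0.0783 without 2MA set 3.

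Signalling genes of the class acted on cyclic AMP, as kinases or as receptors. Pde4b, a phosphodiesterase that degrades cyclic AMP, had LPS values of 2.57, 2.27 and 2.85 and 2MA values of 0.42, 0.60 and -0.02, a 4.70-fold difference (adjusted p = 1.64e-06). Pim1, a serine/threonine kinase, had LPS values of 2.78, 2.60 and 2.81 and 2MA values of 0.26, 1.06 and 0.07. Gpr84, a receptor for medium-chain fatty acids, had LPS values of 2.67, 3.01 and 2.58 and 2MA values of 0.51, 0.70 and 0.07. For these 3 genes the lowest LPS set stood more than 1 log2 unit above the highest 2MA set. Marcksl1, an actin-binding protein, had means of 2.36 ± 0.34 with LPS and 0.21 ± 0.60 with 2MA. Lynx1, a Ly6-family modulator of acetylcholine receptors, had the largest difference of all features tested, 2.84 (SE 0.31), with LPS values of 3.24 and 3.89 and 2MA values of 1.02 and 0.43 in sets 2 and 3 and none in set 1. When probes measured at 1 h alone were admitted, further Lynx1 measurements entered and the difference was 1.03 (adjusted p = 0.847), and Csf3 likewise dropped to 1.31 (adjusted p = 0.431).

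Some LPS-only genes were raised by 2MA too, below the limit of 2-fold. Fosl1, an AP-1 subunit, had LPS values of 2.23, 1.87 and 2.44 and 2MA values of 1.20, 0.87 and 0.64. Its 2MA mean of 0.91 had an adjusted p of 0.000566, and the difference was 1.27 (SE 0.22, adjusted p = 0.00033). Sertad1, a cell-cycle coactivator, and Atf3, a repressor of the ATF family, had 2MA means of 0.90 and 0.59 (adjusted p = 0.0185 and 0.0303). These 3 of the 55 members thus passed the adjusted p with 2MA and missed the fold. Sertad1 lost its call in the direct difference without LPS set 1 (1.17, adjusted p = 0.0941) or 2MA set 3 (1.18, adjusted p = 0.0935).

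Promoter sequence was looked up for members of each class in RefSeq windows of GRCm38.p6 that run from 250 bases before to 50 bases after a start. Of the 53 named LPS-only genes 41 had a window, as did 11 of 20 shared and 9 of 12 purine-biased genes. The NF-kB forms searched, on both strands as for every motif here, were GGG and TTTCC with 2 free bases between them, and GGGA and TTCC likewise, which overlap in part. A window of 3 of 41 LPS-only genes (7.32%) held at least 1 form, against 229 of 7761 genes tested with a window (2.95%) and 2.68% of all 32851 windows. None of the 11 shared and none of the 9 purine-biased genes did. The 3 genes were Nfkb2, Tnfaip3 and Ifnb1, and the bases before the start are shown for Tnfaip3 (chr10:19015411-19015660, minus strand) and Ifnb1 (chr4:88522795-88523044, minus strand) because both belong to the groups just described, with the NF-kB match in capitals.
Tnfaip3: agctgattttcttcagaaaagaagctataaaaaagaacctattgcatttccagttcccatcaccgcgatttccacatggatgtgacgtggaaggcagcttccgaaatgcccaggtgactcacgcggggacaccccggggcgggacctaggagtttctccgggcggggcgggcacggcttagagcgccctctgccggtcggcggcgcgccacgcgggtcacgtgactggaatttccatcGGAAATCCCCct
Ifnb1: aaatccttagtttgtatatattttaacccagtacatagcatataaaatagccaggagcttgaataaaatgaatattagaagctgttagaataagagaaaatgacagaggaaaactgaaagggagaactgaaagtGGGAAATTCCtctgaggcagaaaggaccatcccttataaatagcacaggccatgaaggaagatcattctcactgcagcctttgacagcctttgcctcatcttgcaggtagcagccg
The Tnfaip3 match begins 12 bases and the Ifnb1 match 116 bases before the start. A match is a string of letters and shows no binding, and no test was made of these counts.

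Shared genes included the transcription factors Egr1, Egr2, Egr3, Myc and Nr4a1, the decay factor Zfp36 and the chemokines Ccl4 and Ccl7, beside phosphatase, surface and signalling genes. For 5 of the 23, LPS was called higher. Nfkbiz, an atypical nuclear inhibitor of NF-kB that is needed for secondary response genes, had the highest LPS ratio of all features tested, with LPS values of 5.42, 4.48 and 5.23 and 2MA values of 3.66, 2.10 and 1.26. Every set was above 0 in both groups and the groups did not overlap, with a difference of 2.71 (SE 0.36, adjusted p = 5.36e-06, 6.52-fold). Dusp1, the phosphatase that switches off p38 and JNK, had LPS values of 3.65, 3.70 and 4.47 and 2MA values of 2.44, 1.27 and 0.74. The difference was 2.46 (SE 0.34, adjusted p = 1.1e-05). Cd83, a surface marker of activated antigen-presenting cells, had LPS values of 3.50, 3.17 and 3.55 and 2MA values of 1.94, 1.44 and 0.97. The difference was 1.96 (adjusted p = 1.24e-05), and again no 2MA set reached an LPS set. Phlda1, an early gene of growth factor signalling, had means of 4.31 ± 0.36 and 1.88 ± 0.45, a difference of 2.43 (adjusted p = 0.00571) that was 2.22 without LPS set 3 (adjusted p = 0.0558) and 2.20 without 2MA set 3 (adjusted p = 0.0667). Btg2, an antiproliferative early gene, had means of 3.81 ± 0.62 and 1.74 ± 1.06, a difference of 2.06 (adjusted p = 0.00186; 1.53 and adjusted p = 0.0744 without 2MA set 3). In 15 of the 20 shared features with all 3 2MA sets, set 3 was the lowest, and in 17 set 1 was the highest.

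The Egr zinc-finger factors, serum- and MAP kinase-responsive regulators, rose with both treatments, and the direct difference was not called for any of the 3 that rose. Egr1 had LPS values of 4.20, 2.89 and 5.33 and 2MA values of 4.92, 3.00 and 3.53, and the groups overlapped fully. Its difference was 0.33 with a 95% interval of the fit from -1.08 to 1.74. Egr2 had LPS values of 3.10, 2.67 and 4.45 and the highest 2MA ratios of all features tested, 5.27, 3.21 and 4.72, a difference of -0.99 (-2.30 to 0.31). Egr3 had LPS values of 1.49, 1.74 and 1.47 and 2MA values of 2.36, 2.46 and 1.44, a difference of -0.52 (-1.15 to 0.11). These intervals admit a 2-fold difference in either direction for Egr1 and 2-fold higher ratios with 2MA for Egr2 and Egr3.

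For Myc, Zfp36 and Nr4a1 the intervals were narrower than those of Egr1 and Egr2. Myc, the growth-promoting transcription factor, had LPS values of 2.83, 3.12 and 2.57 and 2MA values of 2.98, 2.51 and 2.13, a difference of 0.30 with an interval from -0.37 to 0.97. Its interval stayed inside 2-fold in both directions. Zfp36, which triggers the decay of Tnf and other AU-rich transcripts, had LPS values of 2.68, 2.46 and 3.76 and 2MA values of 3.19, 2.16 and 1.62, a difference of 0.64 (-0.13 to 1.41). Nr4a1, an orphan nuclear receptor, had LPS values of 1.79, 1.58 and 1.46 and 2MA values of 2.94, 1.51 and 0.78, so that its groups overlapped around nearly equal means, with a difference of -0.14 (-0.90 to 0.63). Rcan1, an inhibitor of calcineurin and itself a calcium-responsive gene, had LPS values of 1.11, 1.60 and 1.16 and 2MA values of 2.39, 2.71 and 1.80. Its groups did not overlap, but the difference of -1.01 (-1.96 to -0.06) had an adjusted p of 0.478. Of the 17 shared features without a called difference, 9 had an interval that included 0 and 14 had an interval that reached 2-fold.

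For Tnf, Ccl4 and Arc the mean was higher with LPS and the difference was not called. Tnf had LPS values of 3.38, 3.04 and 3.90 and 2MA values of 3.04, 2.21 and 0.94. The highest 2MA set met the lowest LPS set at 3.04, and the difference was 1.38 (0.48 to 2.27, adjusted p = 0.153), with 1.18 and 1.57 for its 2 probes. Ccl4, a chemokine that attracts monocytes and T cells, had LPS values of 2.80 and 2.84 and 2MA values of 2.07 and 1.31 in sets 2 and 3, a difference of 1.13 (0.46 to 1.80, adjusted p = 0.0939). Arc, an activity-regulated early gene, was measured in sets 1 and 3 alone, with 3.27 and 3.23 for LPS and 2.60 and 1.05 for 2MA. The values of 2MA set 3, which had the lowest median over the shared genes, were the lowest 2MA values for Tnf, Ccl4 and Arc.

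**Figure D2:**
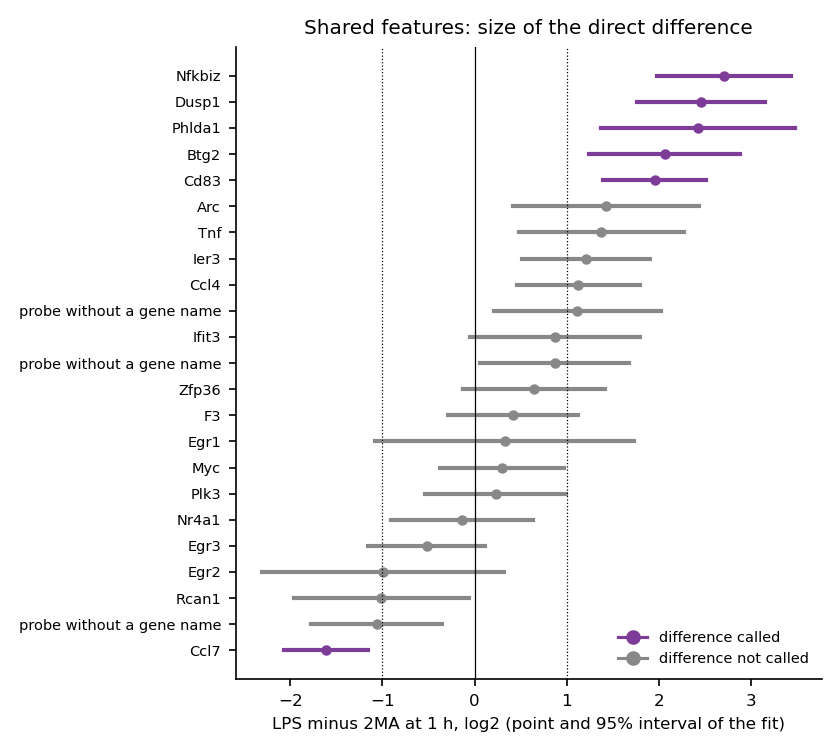
LPS minus 2MA difference at 1 h on the log2 scale with the 95% interval of the fit for the 23 shared features; purple marks called differences, grey those not called, and dotted lines a 2-fold difference. The 5 features at the top, Nfkbiz to Cd83, lie above 1.96 or at it, Ccl7 at the bottom is at -1.61, and the grey intervals are mostly wide enough to reach a dotted line.

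Motifs of other early regulators were searched in the same windows. The CArG box, the site of serum response factor, was in a window of 2 of 11 shared genes (Egr2 and Zfp36), of 0 of 41 LPS-only and of 0 of 9 purine-biased genes, against 1.80% of genes tested. The cyclic AMP response form TGACGTCA was in a window of 3 shared genes (Btg2, Dusp1 and Rcan1), of 2 LPS-only genes (Maff and Ppp1r15a) and of no purine-biased gene, against 2.76% of genes tested. The AP-1 form TGANTCA was in 3 shared and 5 LPS-only genes (8.05% of genes tested) and the Egr forms GCGGGGGCG or GCGTGGGCG in 2 shared, 7 LPS-only and 1 purine-biased gene (6.78%). The sequences before the start are given for Dusp1, for which LPS was higher, and for Egr2 and Zfp36, for which no difference was called, with TGACGTCA or the CArG box in capitals. They lie at chr17:26508473-26508722, minus strand, at chr10:67537619-67537868, plus strand and at chr7:28379229-28379478, minus strand.
Dusp1: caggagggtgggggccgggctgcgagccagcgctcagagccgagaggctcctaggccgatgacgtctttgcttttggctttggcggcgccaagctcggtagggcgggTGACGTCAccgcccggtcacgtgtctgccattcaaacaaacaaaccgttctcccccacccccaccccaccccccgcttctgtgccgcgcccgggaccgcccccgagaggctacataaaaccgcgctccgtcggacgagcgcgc
Egr2: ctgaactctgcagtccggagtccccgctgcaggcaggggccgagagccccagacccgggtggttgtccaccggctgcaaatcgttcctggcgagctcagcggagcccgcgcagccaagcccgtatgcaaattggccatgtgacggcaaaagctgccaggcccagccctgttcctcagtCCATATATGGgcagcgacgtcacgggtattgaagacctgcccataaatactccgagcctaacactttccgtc
Zfp36: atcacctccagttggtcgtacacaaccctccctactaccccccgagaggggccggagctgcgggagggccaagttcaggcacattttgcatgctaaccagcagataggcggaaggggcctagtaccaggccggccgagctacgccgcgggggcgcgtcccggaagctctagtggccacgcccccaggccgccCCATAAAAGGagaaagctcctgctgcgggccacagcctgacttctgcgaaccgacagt
The matches begin 143, 72 and 58 bases before the start.

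The purine-biased genes mostly combined a modest rise with 2MA and a value below 0 with LPS. By the choice of members LPS was lower, and for 8.44% of all features the 3 LPS sets lay below the 3 2MA sets. LPS means were below 0 for 13 of the 14 and 2MA means were above 0 for 12. The rise with 2MA was called for 3, the fall with LPS for another 3, and neither for 8, whose difference alone passed. Ccl7, a chemokine that attracts monocytes, was the only member that rose with both. Its LPS values were 1.08, 1.05 and 1.04 and its 2MA values 3.07, 2.28 and 2.67, a difference of -1.61 (SE 0.23, adjusted p = 1.24e-05). The groups were far apart, and 2 of its 3 probes showed this with differences of -2.70 and -2.27, at LPS ratios of 1.31 and 1.80 and 2MA ratios of 4.01 and 4.06. The remaining probe was at 0.08 with LPS and -0.05 with 2MA, and it lowers the gene's mean.

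Ptger4, the prostaglandin E2 receptor EP4 that signals through cyclic AMP, had LPS values of -0.75, -0.16 and -0.49 and 2MA values of 1.68, 0.71 and 1.17. The signs were opposite in every set, and the difference of -1.65 (SE 0.33, adjusted p = 0.00199) was the lowest of all features tested. Polk, a DNA polymerase that copies past damaged bases, had LPS values of -0.52, -0.61 and -0.37 and 2MA values of 1.20, 1.28 and 0.72, a difference of -1.56 (adjusted p = 1.03e-05). Rgs2, which shortens G protein signalling, had LPS values of -0.23, -0.35 and -0.47 and 2MA values of 1.46, 0.66 and 0.68. It differed by -1.29 (adjusted p = 0.00575), and the call depended on 2MA set 1, without which the difference was -1.02 (adjusted p = 0.108). Etv1, an ETS transcription factor, had LPS values of -0.41, -0.54 and -0.25 and 2MA values of 0.94, 0.72 and 0.80. It had the smallest SE of the named members (difference -1.22, SE 0.15, adjusted p = 2.47e-06), although neither change against control reached 2-fold.

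The other named members followed the same pattern with smaller or less stable differences. Bdh2, a cytosolic dehydrogenase, was at -0.25 ± 0.16 with LPS and 0.91 ± 0.31 with 2MA (difference -1.16, adjusted p = 0.00208). Riox1, a histone and ribosomal protein oxygenase, differed by -1.15 (-0.96 without LPS set 1). Per2, a circadian clock repressor, differed by -1.05 (-0.998, -0.98 and -0.96 without LPS set 1, LPS set 2 or 2MA set 2). Ptpn22, a phosphatase of immune receptor signalling, differed by -1.03 (-0.86 without 2MA set 1). Klf4, a Krüppel-like factor of macrophages and epithelia, differed by -1.01 (-0.92, -0.96 and -0.88 without LPS set 1, LPS set 2 or 2MA set 1, adjusted p = 0.128, 0.0931 and 0.147). All of these except Bdh2 thus lost the call when at least 1 set was left out, by the 2-fold limit, by the adjusted p or by both.

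Txnip and Sfi1 were in the class because LPS lowered them. Txnip, which binds thioredoxin and restrains glucose uptake, had LPS values of -2.00, -1.57 and -2.20 and 2MA values of -1.52, 0.08 and -0.78. Both groups were mostly below 0, the fall with 2MA was not called, and the difference was -1.19 (adjusted p = 0.0263). It was not called without LPS set 1 (-1.15, adjusted p = 0.128), LPS set 3 (-1.05, adjusted p = 0.156), 2MA set 2 (-0.78, adjusted p = 0.225) or 2MA set 3 (-1.20, adjusted p = 0.0939). Its 2 probes gave -1.53 (adjusted p = 1.51e-05) and -0.84 (adjusted p = 0.689). Sfi1, a spindle assembly protein, had LPS values of -2.03, -1.41 and -1.75 and 2MA values of -0.92, 0.13 and -0.38, a difference of -1.33 (SE 0.22, adjusted p = 0.00016).

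The short cyclic AMP half-site TGACG was in a window of 3 of 9 purine-biased genes (33.3%), 6 of 11 shared (54.5%) and 14 of 41 LPS-only genes (34.1%), against 30.9% of genes tested. It is in part of every TGACGTCA. The sequences of Rgs2 (chr1:144004150-144004399, minus strand), with both matches in capitals, and of Ptger4 (chr15:5244188-5244437, minus strand), which held no form searched, are given as the purine-biased members of G protein and cyclic AMP signalling.
Rgs2: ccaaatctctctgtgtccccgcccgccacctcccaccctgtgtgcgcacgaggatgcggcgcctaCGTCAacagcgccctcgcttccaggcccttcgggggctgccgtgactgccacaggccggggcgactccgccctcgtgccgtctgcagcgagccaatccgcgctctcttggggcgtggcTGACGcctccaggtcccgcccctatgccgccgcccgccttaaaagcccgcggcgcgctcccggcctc
Ptger4: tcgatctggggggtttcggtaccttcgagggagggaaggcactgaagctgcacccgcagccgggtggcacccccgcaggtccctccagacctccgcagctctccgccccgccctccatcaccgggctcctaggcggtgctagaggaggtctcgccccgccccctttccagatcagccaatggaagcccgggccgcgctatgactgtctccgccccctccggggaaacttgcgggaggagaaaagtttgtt
The Rgs2 matches begin 185 and 67 bases before the start, the first on the opposite strand.

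**Figure D3:**
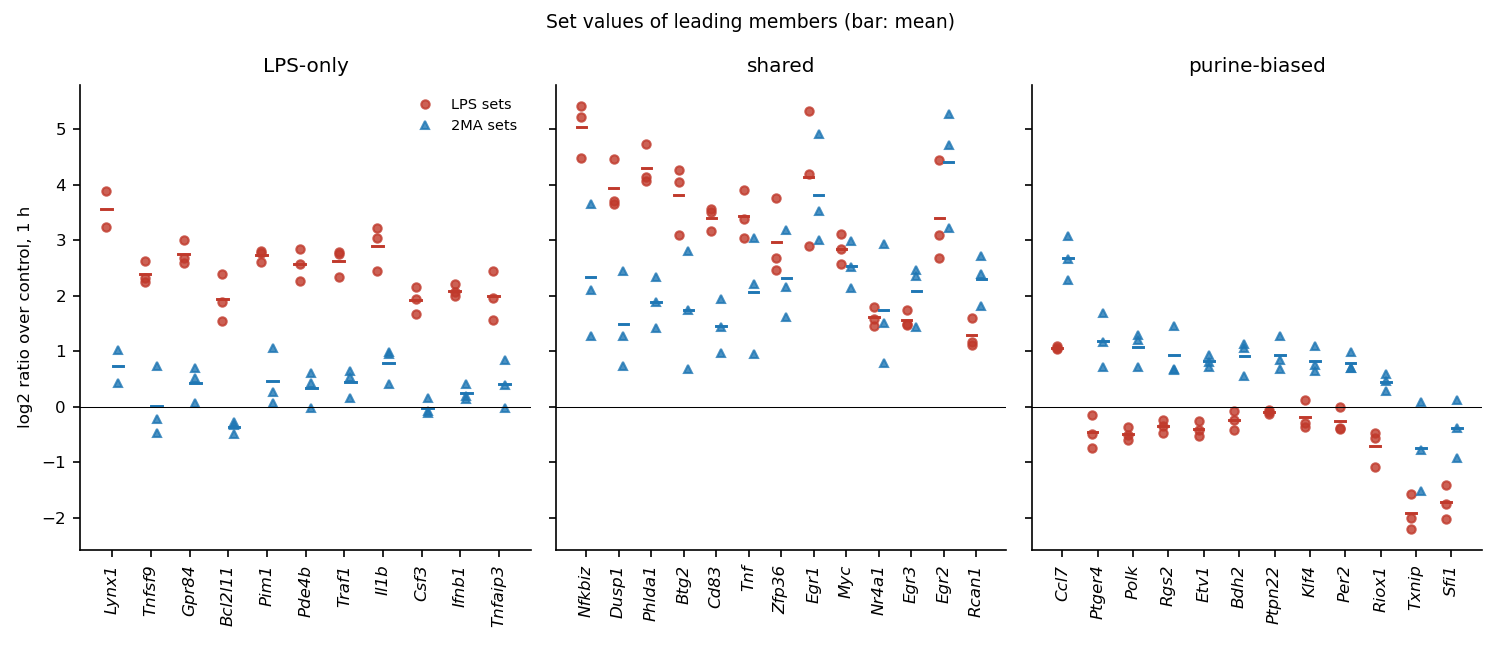
Log2 ratio over untreated RNA at 1 h for each LPS set (red circles) and each 2MA set (blue triangles) of leading members of the 3 classes, with the mean as a bar. LPS-only genes show separate groups, with 2MA sets between -0.49 (Bcl2l11) and 1.06 (Pim1). Shared genes lie above 0 in every set, with overlap from Tnf, where the groups just meet, to Egr2. For purine-biased genes 2MA lies above LPS, as for Ptger4 at 0.71 to 1.68 against -0.75 to -0.16.

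Id3 alone was called in opposite directions. Id3, an inhibitor of helix-loop-helix transcription factors, had LPS values of 1.91, 1.18 and 1.50 and 2MA values of -1.09 and -1.20 in sets 1 and 3, with set 2 missing. The difference was 2.68 (SE 0.26, adjusted p = 6.63e-08, 6.39-fold). Its relative Id2, named after its values were seen, was called lower with 2MA, at -1.29, -1.42 and -0.86, and was at -0.28 ± 0.29 with LPS, without a called difference (0.91, interval 0.23 to 1.59). The fall of Id3 with 2MA rests on 2 sets. Without 2MA set 1, 0 features were called lower with 2MA, so the falls of Id3 and Id2 were not called. Without 2MA set 3, 1 feature was called lower. Spry1, Rgs16 and Resf1, also named after their values were seen, were called higher with 2MA and not with LPS, and their differences were not called. Rgs16, which shortens G protein signalling like Rgs2, had 2MA values of 2.22, 2.27 and 1.29 and a mean LPS ratio of 0.77. Its difference was -1.16 (-1.93 to -0.38, adjusted p = 0.169), with -1.16, -1.58 and -0.73 for its 3 probes, of which the first and second passed the call as single probes. Spry1, an inhibitor of receptor tyrosine kinase signalling, had 2MA values of 2.13, 0.58 and 0.53 and a difference of -0.92 (-1.46 to -0.38).

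Gene lists by role showed where the difference lay. The lists were drawn up with earlier results of these data known, and their medians are set beside a median of -0.01 over all features tested. In NF-kB inhibitors and feedback genes, 9 of 17 listed were measured, 7 rose with LPS, 1 (Nfkbiz) rose with 2MA, and 6 were higher with LPS in the direct difference, which had a median of 1.22. The 3 LPS sets lay above the 3 2MA sets for all 9, as for 7.41% of all features. Of 4 NF-kB subunits 3 rose with LPS and 0 with 2MA, and 1 (Nfkb2) differed, with a median of 0.77. Rel, a subunit that rose to 1.27 ± 0.40 with LPS, was at 0.45 ± 0.50 with 2MA, a difference of 0.82 (0.36 to 1.28). Of 18 genes of TNF and death receptor signalling 8 rose with LPS, 1 (Cd83) with 2MA and 7 differed, with a median of 0.79. Over all features, 1.03% were called higher and 0.0517% lower with LPS, and 0.259% higher and 0.069% lower with 2MA. In the direct difference 0.612% were higher with LPS and 0.121% with 2MA. These shares also stand beside the lists that follow.

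Immediate early factors were the list most often raised by 2MA. Of 34 measured, 21 rose with LPS (1.03% of all features did), and 11 rose (0.259%) and 2 (Id2 and Id3) fell (0.069%) with 2MA. Neither fall was called without 2MA set 1. In the direct difference 7 were higher with LPS (0.612%) and 1 (Klf4) with 2MA (0.121%), with a median of 0.63. Maff, a small Maf factor, and Zfp36l1, a relative of Zfp36, were LPS-only, with differences of 1.41 and 1.13. Maff lost the call without LPS set 1 (1.24, adjusted p = 0.145), LPS set 2 (1.41, adjusted p = 0.0606) or 2MA set 3 (1.21, adjusted p = 0.169), and Zfp36l1 without LPS set 1 (0.92, adjusted p = 0.0668) or, by the fold alone, without 2MA set 3 (1.00, adjusted p = 0.0461). Fos was at 0.06 with LPS and 0.51 with 2MA, not called, with a difference of -0.46 (-0.86 to -0.05). Of 7 MAPK phosphatases and Sprouty brakes, 3 rose with LPS, 2 with 2MA and 2 differed, with a median of 0.78. Dusp2, a phosphatase of ERK and p38, had LPS values of 3.40, 1.20 and 2.89 and 2MA values of 1.90, 0.43 and 0.48, where set 2 rests on 1 of its 2 probes. Its difference of 1.56 (adjusted p = 0.0235) was not called without LPS set 1 (1.11, adjusted p = 0.352), LPS set 3 (1.36, adjusted p = 0.15), 2MA set 2 (1.31, adjusted p = 0.113) or 2MA set 3 (1.33, adjusted p = 0.204), whereas its probes taken singly gave 2.55 and 1.17 (adjusted p = 0.000773 and 0.00384).

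Secreted products were mixed. Of 20 inflammatory cytokines 7 rose with LPS, 1 (Tnf) with 2MA, and 5 were higher with LPS, with a median of 0.32. Il1a, a relative of Il1b, rose to 1.29 ± 0.21 with LPS and was at 0.16 ± 0.11 with 2MA, a difference of 1.13 (0.30 to 1.96) that was not called. Il6 was at 0.14 and -0.09, with no change called at 1 h. Of 12 chemokines 2 rose with each agent (Ccl4 and Ccl7), 0 were higher with LPS and 1 (Ccl7) was higher with 2MA, with a median of 0.06. These are the chemokines that passed the filter on missing values. Cxcl10, Cxcl2 and Cxcl11 of the list did not pass it. Tested with a filter on the 1 h groups alone, Cxcl10 was called higher with LPS (2.12), and Cxcl2 (1.41) and Cxcl11 (0.37) were not called. Of 8 eicosanoid and nitric oxide enzymes 2 rose with LPS, 0 with 2MA and 0 differed (median 0.21). Acod1 and Alox5ap of this list were left out by the same filter. With the 1 h filter Acod1 was called higher with LPS (2.02) and Alox5ap was not called (0.03). Ptgs2, the inducible cyclooxygenase, rose to 1.67 ± 0.48 with LPS and was at 0.88 ± 0.17 with 2MA, a difference of 0.79 (-0.04 to 1.62), and Nos2, the inducible nitric oxide synthase, was at -0.02 and 0.03.

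Lists of the receptors and of second messengers gave few calls. Of 23 cyclic AMP and calcium-calcineurin response genes 6 rose with LPS, 3 with 2MA, 2 (Pde4b and Pim1) were higher with LPS and 1 (Rgs2) with 2MA, with a median of 0.00. Among 14 P2 and adenosine receptors and ectonucleotidases, 0 were called in any of the 3 comparisons. P2ry2 and P2ry6, nucleotide receptors of the P2Y family, differed by 0.60 (0.23 to 0.98) and 0.45 (-0.01 to 0.91). P2rx4 and P2rx7, ATP-gated channels, differed by 0.17 and 0.16. The 3 probes of P2ry2 gave 1.04, 0.19 and 0.58. Of 14 members of the Toll-like receptor 4 pathway 1 (Tlr2) rose with LPS and 0 differed. Tlr4 itself differed by -0.39 (-0.79 to 0.00) and Cd14 by 0.08 (-0.32 to 0.48). Interferon-stimulated genes numbered 17 measured, of which 1 (Ifit3) rose with each agent and 1 differed. That gene was Isg15, a ubiquitin-like modifier, at 0.94 ± 0.22 and -0.08 ± 0.40 (difference 1.02, adjusted p = 0.0476). Isg15 lost the call without LPS set 1 (1.14, adjusted p = 0.0705), LPS set 2 (1.00, adjusted p = 0.156), LPS set 3 (0.92, adjusted p = 0.198), 2MA set 1 (0.84, adjusted p = 0.34) or 2MA set 2 (0.97, adjusted p = 0.102). Ifih1, Rsad2, Gbp2 and Usp18 of the interferon-stimulated list did not pass the filter on missing values. With a filter on the 1 h groups alone, Ifih1 and Rsad2 were called higher with LPS (1.86 and 1.66). Gbp2 and Usp18 were not called (0.16 and -0.31). Of 6 SOCS feedback genes 0 were called in any comparison. Of 19 stress response genes 3 rose and 1 fell with LPS, 0 were called with 2MA, and 1 differed in each direction (Ppp1r15a and Txnip). The 9 reference genes had 0 calls.

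**Figure D4:**
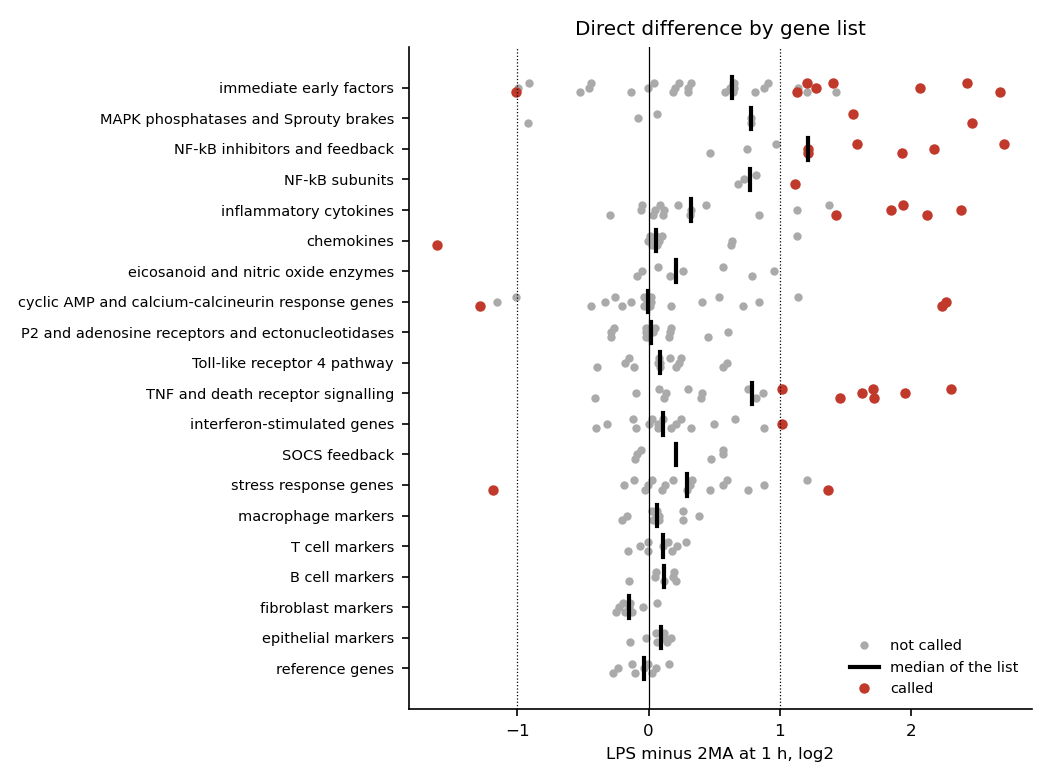
LPS minus 2MA difference at 1 h on the log2 scale for each measured member of 20 gene lists, with called members in red, others in grey and the list's median as a bar; dotted lines mark a 2-fold difference. The NF-kB feedback list has its median at 1.22, and the marker and reference lists have all members between -0.27 and 0.39.

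Times that did not choose the classes showed the LPS-only genes apart at 2 and 4 h as well. Their median LPS ratio was 1.76, 2.06 and 1.98 at the 3 times, and their median 2MA ratio was 0.21, 0.35 and 0.26. Of the 55, 44 were called higher with LPS at 2 h (1.84% of all features were) and 40 at 4 h (3.64%), against 8 (0.319%) and 2 (0.112%) with 2MA. None was called lower with 2MA at 2 h (0.00862% of all features were) or at 4 h (0.0345%). The direct difference was called above 0 for 38 at 2 h (1.23%) and 39 at 4 h (3.04%; 3.84% of all features were called in either direction). The change of the difference from 1 h to 4 h was called upward for 5 LPS-only features and downward for 5. The upward ones included Csf3, Cd40, Il1b and Tnfrsf1b, with differences of 4.14, 3.76, 3.77 and 2.75 at 4 h. Isg15, which is outside the class, also had a called upward change, to 3.05. The downward ones included Gadd45a, which went from 1.72 at 1 h and 2.10 at 2 h to 0.14 at 4 h, a change of -1.57 (SE 0.40, adjusted p = 0.0113). Cdc42ep4, Chka and Tcim, named after their values were seen, were also among them, with differences of 1.62, 1.37 and 1.41 at 1 h and of -0.06, -0.12 and -0.75 at 4 h, where none was called. Of the 85 features called at 1 h, 14 had a called change of the difference by 4 h (2.64% of all features did), of which 6 were larger, 3 smaller and 5 of opposite sign at 4 h. The 1 h values that chose these features, and the LPS-only class, also enter this change. No result is therefore drawn from these counts beside the share over all features. LPS and 2MA arrays of a time may share untreated RNA, so each comparison's own values are given.

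More of the shared genes were called higher with LPS than with 2MA at the later times. Their median 2MA ratio was 2.07, 1.26 and 0.59 at the 3 times, whereas their median LPS ratio was 2.96, 2.16 and 2.47. With 2MA 13 of 23 were still called higher at 2 h (0.319% of all features were) and 2 at 4 h (0.112%). With LPS 16 were called higher at 2 h (1.84%) and 16 at 4 h (3.64%, and 4.81% in either direction). The direct difference was called above 0 for 5 at 1 h, 10 at 2 h and 14 at 4 h. Over all features this share rose as well, from 0.612% through 1.23% to 3.04%. Myc, near equal at 1 h, differed by 2.57 (SE 0.33, adjusted p = 7.6e-07) at 2 h. Tnf differed by 2.53 (adjusted p = 0.000149) and Zfp36 by 1.43 (adjusted p = 0.019) at 2 h. Egr2, Egr3, Nr4a1 and Rcan1 had differences between -1.01 and -0.72 at 2 h and between -1.04 and -0.17 at 4 h, none of them called. Egr1 was at -1.43 at 2 h, not called (adjusted p = 0.417), and at 2.05 at 4 h, called with LPS higher (adjusted p = 0.0411). Whether the shared genes as a class changed between 1 h and 4 h was tested gene by gene alone, and 6 of 23 had a called change, all upward (2.03% of all features went upward). The 1 h values that chose the class enter this change too.

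At 2 h 12 of the 14 purine-biased features still had a difference below 0, and Ccl7 (0.76) and Sfi1 (0.19) were above 0 without a call. The direct difference was called below 0 for 8 at 2 h (0.293% of all features) and for 3 at 4 h (0.793%), with medians of -1.18 and -0.74. Etv1 differed by -1.49 (adjusted p = 1.07e-08) at 2 h and -1.06 (adjusted p = 2.32e-06) at 4 h, whereas Bdh2 differed by -1.41 at 2 h and by -0.81, under 2-fold, at 4 h. Polk, Rgs2, Klf4 and Txnip were called at 2 h (-1.39, -1.39, -1.10 and -1.81) and not at 4 h. Ptger4 differed by -0.28 at 2 h and -0.48 at 4 h, and Ptpn22 by -0.01 at 4 h, neither called. Ccl7 turned round: its LPS ratio went from 1.06 at 1 h through 2.89 at 2 h and reached 3.43 at 4 h, whereas with 2MA it was 2.67, 2.13 and 1.15. Its difference was 2.28 (SE 0.23, adjusted p = 8.6e-10) at 4 h, a change from 1 h of 3.89 (SE 0.32, adjusted p = 3.27e-10).

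Cells that received LPS at 100 ng/ml and 2MA at 500 µM together for 1 h (3 sets) gave further values for the classes. Lipid binding protein is not listed for this group, whereas it is for LPS alone, so the groups differ in more than 2MA as labelled. The untreated RNA may be that of the LPS and 2MA arrays at 1 h, so these values may not be independent of the choice of members. Of the LPS-only features 51 of 55 were called higher (1.15% of all features were), with a median of 1.78, and the median of LPS alone was 1.76. All 23 shared features were called higher, with a median of 3.54. Nr4a1, at 1.61 and 1.75 with the single agents, was 3.54 ± 0.37 with both, and Egr2 was 5.40 ± 0.96. Of the 14 purine-biased features 1 (Ccl7, at 2.92 ± 0.28) was called higher and 2 (Txnip and Sfi1, at -2.42 and -1.62) lower (0.0776% of all features were), and the median was 0.26. For 11 of the 14 the mean with both agents lay between the means of the single agents, as for Ptger4 at 0.47 ± 0.33 between -0.46 and 1.19. Members were chosen for a gap between the single agents, which favours such a position. The share over all features was not counted, so no result about the class is drawn. The mean with both agents was not tested against either single agent. For Sfi1 it was within the spread of LPS alone (-1.73 ± 0.31), and for Ptpn22, at 0.78 ± 0.31, within that of 2MA alone (0.93 ± 0.30).

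**Figure D5:**
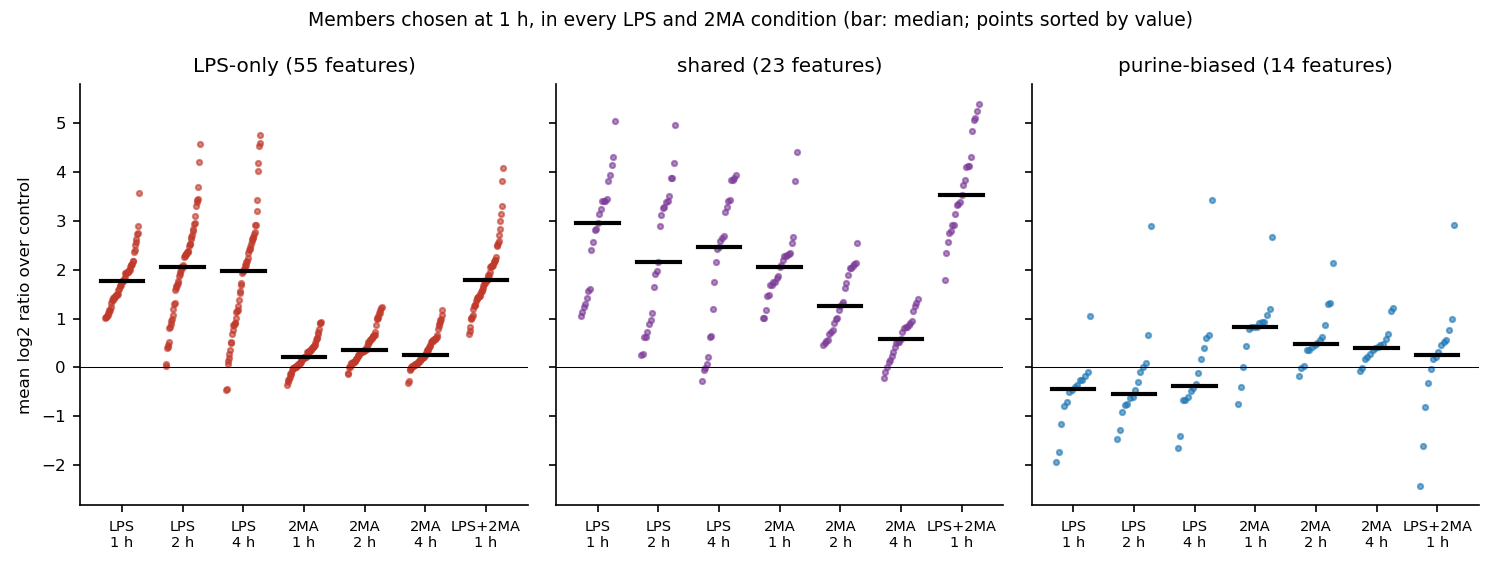
Mean log2 ratio over untreated RNA of each member of the 3 classes in LPS, 2MA and LPS+2MA conditions, points sorted by value within a condition and the median as a bar. LPS-only medians stay between 1.76 and 2.06 with LPS and between 0.21 and 0.35 with 2MA, shared medians with 2MA go from 2.07 to 0.59, and purine-biased medians are below 0 with LPS and above 0 with 2MA.

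Some early genes were measured at 1 h but not in enough sets of every condition to enter the fit, and they were tested with a filter on the 1 h groups alone, chosen after the data were seen. Cxcl10, a chemokine for activated T cells, had LPS values of 3.37, 2.67 and 3.44 and 2MA values of 1.30, 1.11 and 0.72, a difference of 2.12 (SE 0.29, adjusted p = 8.46e-05). Cxcl2, a neutrophil chemokine, had LPS values of 4.98 and 4.00 in sets 1 and 2 and 2MA values of 3.73 and 2.44 in sets 2 and 3, a difference of 1.41 (0.28 to 2.53) that was not called. Both were called higher with each agent. Nfkbia, the classical inhibitor of NF-kB, had LPS values of 1.92 and 2.02 and 2MA values of 1.25, 1.28 and 0.32, a difference of 1.03 (0.47 to 1.58, adjusted p = 0.0706). Ifih1 and Rsad2, an RNA sensor and an antiviral enzyme, and Acod1, which makes itaconate, were named after their values were seen. Ifih1 and Rsad2 rose with LPS to 1.99 and 1.99 and were at 0.13 and 0.33 with 2MA, with differences of 1.86 and 1.66 called. Acod1 rose with both, to 3.73 and 1.70, with a called difference of 2.02 (SE 0.37, adjusted p = 0.00282). With this filter 89 features were called in the direct difference, 56 were LPS-only, 25 shared and 14 purine-biased. Ccl2, Ccl3, Fosb and Junb were not analysed here.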

How the data were processed

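Per the labels, RNA of treated and untreated RAW 264.7 cells was hybridised on 2-colour arrays with 16281 probes. The authors deposited, for each array, a log2 ratio per probe, and the image reading, background correction and normalization are not given in the sources used here. Exact zeros were treated as missing, the sign was turned where treated RNA was in Cy3, and a set value needed both arrays of a dye-swapped pair. A probe was kept when 2 of 3 sets had a value in each of the 15 conditions (13711 probes), and probes of a gene were averaged, giving 11600 features. Arrays give no read depth, so the number of sets limits the precision.

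A mean for each condition was fitted to the 45 set means with limma 3.58.1 in R 4.3.3, which pools the spread over conditions, and tables were made with pandas 2.3.3 in Python 3.11.15. Tests were two-sided with Benjamini-Hochberg adjustment over all features. The test of the direct difference was tried on simulated set values with changes added to LPS 1 h. The steps before it and the classes were not simulated. Genes were named by rule: the 15 highest and 15 lowest called differences with sets that do not overlap, the 10 members of each class with the largest ratio, in each list the called members or otherwise the 2 with the largest difference, and 36 given genes, of which 7 were not tested. Members, lists and rules were chosen with earlier results of these data known.

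Sets of the same number deviated together between LPS and 2MA (r = 0.402, 0.207 and 0.506), so the numbers may pair the sets. The labels do not state this, and the reported values come from the fit without pairing. The alternatives were the set number as a block, fitting the 6 sets alone, each dye alone, scaled spread, single probes, other filters, the adjusted p alone and leaving out each set.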

Additional observations from a re-analysis of the deposited data

Results flagged for a closer look

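The LPS minus 2MA difference at 4 h was tested against that at 1 h for all 11600 features. By the interaction term of the limma fit, 306 (2.64%) were called. Of the 85 features called at 1 h, 5 had a called change and the opposite sign at 4 h. Ccl7 and Sfi1 were 2 of these, and their differences had turned from below 0 to above 0. The 1 h values that chose these features also enter the change. For Ccl7 the change was 3.89 (SE 0.32, adjusted p = 3.27e-10), from -1.61 at 1 h to 2.28 at 4 h. For Sfi1 it was 1.77 (SE 0.31, adjusted p = 0.000176), from -1.33 at 1 h to 0.44 at 4 h, and the 4 h difference itself was not called (adjusted p = 0.222).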

How the results depend on the processing

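No named gene with a called difference changed sign under any setting run, whereas uncalled ones did, such as Egr1 (-0.27 to 0.95) and Nr4a1 (-0.62 to 0.46). The majority of 2MA calls, 30 higher and 8 lower as reported, turned to 35 higher and 52 lower without 2MA set 2 and to 37 higher and 60 lower with treated RNA in Cy5 alone. With the replicate block, 98 features were called in the direct difference, the 85 reported ones among them, with 60 LPS-only, 23 shared and 16 purine-biased. Fitting the 6 compared sets alone left 3 lower calls with 2MA. With treated RNA in Cy5 alone, 59 features were called lower with LPS, 97 with 2MA (60 lower) and 55 as shared. With treated RNA in Cy3 alone, 83 were called with 2MA (70 higher, 13 lower) and 56 as shared. With scaled spread, 13 were lower with LPS, 70 were called with 2MA (50 higher, 20 lower), 35 were shared and 24 purine-biased. With each probe on its own, 18 were lower with 2MA. With the adjusted p alone, 164 differed (113 higher with LPS), 626 were called with LPS (353 higher, 273 lower) and 147 with 2MA (83 higher, 64 lower), with 94 LPS-only, 64 shared and 51 purine-biased. Leaving out 1 set at a time gave 66 to 118 in the direct difference (52 to 104 higher with LPS), 117 to 129 with LPS, 17 to 87 with 2MA (17 to 38 higher, 0 to 52 lower), 41 to 64 LPS-only, 14 to 28 shared and 10 to 16 purine-biased. Of the 49 named genes with a called difference, 28 were called under all 16 settings. Over these 49 genes, 65 of 782 gene and setting pairs lost the call, and 7 of the 40 uncalled genes gained one. The causes were not tested.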
